A study of Mus musculus with 3 samples.

Results

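The DNA replication fork machinery was followed as 47 genes, chosen by symbol as the subunits of the complexes that load, start and run a replication fork and repackage the DNA behind it. They are 47 of the 46078 genes in the deposited table and 47 of the 10846 genes with a mean of at least 1 FPKM (fragments per kilobase of exon, scaled to the reads counted in the library) over the 3 libraries, so no member was lost to a filter on low values. RAW 264.7 cells, a macrophage line from an Abelson murine leukemia virus-induced mouse tumour, were grown in 3 conditions at passages 10 to 15. The HU + nanocages group received 0.5 mM hydroxyurea (HU) and gold nanocages together, the HU group received 0.5 mM HU, and the control group received neither as far as the labels say. RNA was taken after 12 hours, and each condition is 1 sequencing library, so the nanocages were seen only in cells that also carried HU. The line is a single tumour-derived line of growing cells, and the dose of the nanocages is not given in the sources used here.

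A replication fork is built in steps. The origin recognition complex (ORC) marks an origin and loads the MCM ring, Cdc45 and GINS turn that ring into the running helicase, and polymerase alpha-primase lays down primers that polymerases epsilon and delta extend while held by the PCNA clamp, which the RFC loader places on DNA. RPA covers the exposed single strands, flap nucleases and DNA ligase join the Okazaki fragments, and CAF-1 deposits histones on the new DNA. HU blocks ribonucleotide reductase, the enzyme that makes the DNA building blocks, so forks slow or stall, and many genes of this machinery are known targets of the E2F transcription factors, which act as cells pass from G1 into S phase.

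Promoter sequence was read for 40 of the 47 genes from RefSeq (GRCm38.p6, the assembly also called mm10), in 49 entries, each running from 250 bases before a RefSeq transcription start to 50 bases after it. These starts can differ from the GENCODE gene starts used for the gene coordinates given further on. Gins1, Gins2, Gins4, Mcm4, Pole, Prim2 and Rfc2 had no entry. The letters searched on both strands were the E2F-like words TTTCCCGC, TTTGGCGC, TTTCGCGC and TTTGCCGC, which can overlap each other, and the words CCAAT and TTTGAA. Shown whole, with E2F-like words in capitals, are the promoters of the genes at the top and at the bottom of the ratios of HU to control given below, Rfc3 and Gins3; both hold such words, close to the RefSeq start.
Rfc3, chr5:151651159-151651458, minus strand: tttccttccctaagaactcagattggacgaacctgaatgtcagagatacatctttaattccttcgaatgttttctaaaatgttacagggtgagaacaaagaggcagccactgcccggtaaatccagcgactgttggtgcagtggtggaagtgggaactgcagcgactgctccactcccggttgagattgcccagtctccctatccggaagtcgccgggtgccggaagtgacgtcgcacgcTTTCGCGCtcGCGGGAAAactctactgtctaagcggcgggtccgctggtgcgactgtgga
Gins3, chr8:95633309-95633608, plus strand: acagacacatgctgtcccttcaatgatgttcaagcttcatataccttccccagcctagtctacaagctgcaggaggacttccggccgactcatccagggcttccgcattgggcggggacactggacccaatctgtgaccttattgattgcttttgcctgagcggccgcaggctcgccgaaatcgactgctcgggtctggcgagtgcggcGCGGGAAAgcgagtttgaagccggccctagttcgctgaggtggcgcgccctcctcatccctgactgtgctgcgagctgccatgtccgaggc
The MCM ring genes are shown by 1 window each around an E2F-like word, because the ring is the complex whose genes lay closest together in the ratios.
Mcm3, chr1:20820270-20820309, minus strand: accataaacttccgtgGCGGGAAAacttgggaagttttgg
Mcm5, chr8:75109340-75109379, plus strand: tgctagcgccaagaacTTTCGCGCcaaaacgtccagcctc
Mcm6, chr1:128359788-128359827, minus strand: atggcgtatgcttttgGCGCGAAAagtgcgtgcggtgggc
Mcm7, chr5:138171844-138171883, minus strand: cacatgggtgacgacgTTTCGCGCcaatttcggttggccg
Counted per gene, with a word in any of its entries, E2F-like words were present in 14 of the 40 fork genes (35%), compared with 5.11% of the 7607 expressed genes that have an entry and 2.61% of all 27025 genes in the RefSeq table. CCAAT was present in 25 of the 40 (62.5%), compared with 43.5% of those expressed genes and 41.1% of all genes in the table. TTTGAA was present in 5 of the 40 (12.5%), compared with 14.3% of those expressed genes and 20.2% of all genes in the table. A match of letters is a description of the window and does not show that a factor binds there.

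Most of the fork genes were slightly higher in HU than in control, few by much. The ratio of CPM (a gene's reads scaled to all reads of its library) was above 1 for 40 of the 47 genes (85.1%), compared with 48.1% of all 10846 genes, and its median was 1.15, or 0.20 on the log2 scale, compared with -0.01 for all genes. The ratios ran from 0.791 for Gins3 to 1.53 for Rfc3, and no fork gene was 2-fold apart. Together the 47 genes held 0.690% of the reads in HU + nanocages, 0.689% in HU and 0.601% in control. With 1 library per condition no ratio has a replicate check and no test between conditions was possible. Each ratio instead carries an exact (Clopper-Pearson) 95% interval from the reads of both libraries, which covers counting error only.

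A gene was counted as higher at a ratio of at least 5/4 and as lower at a ratio of at most 0.8, the same distance on the log scale. By this rule 7 of the 47 genes (14.9%) were higher in HU than in control, beside 10.5% of all genes: Rfc3, Orc6, Pcna, Mcm10, Prim1, Dna2 and Pole4. Gins3 alone (2.13%) was lower, beside 8.83% of all genes. Low genes pass these folds more often, and the fork gene with the fewest control reads, Pold4, had 204. Among the 8221 genes with at least that many control reads, 5.45% were higher and 6.12% lower. The share of fork genes that was higher lay above that share and rests on 7 genes. This floor does not match the genes by depth, since fork genes had up to 7115 control reads. By the counting interval, 32 genes (68.1%) lay above 1, beside 18.7% of all genes, and 3 genes (6.38%), Gins3, Ticrr and Orc2, lay below 1, beside 20.1%. Deep genes have narrow intervals; among the 8221 genes with at least 204 control reads, 20.05% had an interval above 1 and 24.1% below it, and 46.1% had a ratio above 1.

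HU + nanocages set against the same control library gave similar values for the fork genes. The ratio was above 1 for 39 of 47 (83.0%), beside 49.2% of all genes. Its median was 1.15 (0.20 on the log2 scale, and 0.00 for all genes), with a range of 0.768 for Gins3 to 1.42 for Rfc3. At a ratio of 5/4, 5 genes (10.6%; Rfc3, Mcm10, Orc6, Prim1 and Orc1) were higher, beside 10.9% of all genes, and 1 (2.13%) was lower, beside 8.57%. Among the genes with at least 204 control reads, 5.81% were higher and 6.09% lower. The interval lay above 1 for 31 genes (66.0%), beside 19.6% of all genes, and below 1 for 3 (6.38%), beside 20.1%. This comparison shares its control library with that of HU against control, so the likeness of their values is no independent observation.

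**Figure D1:**
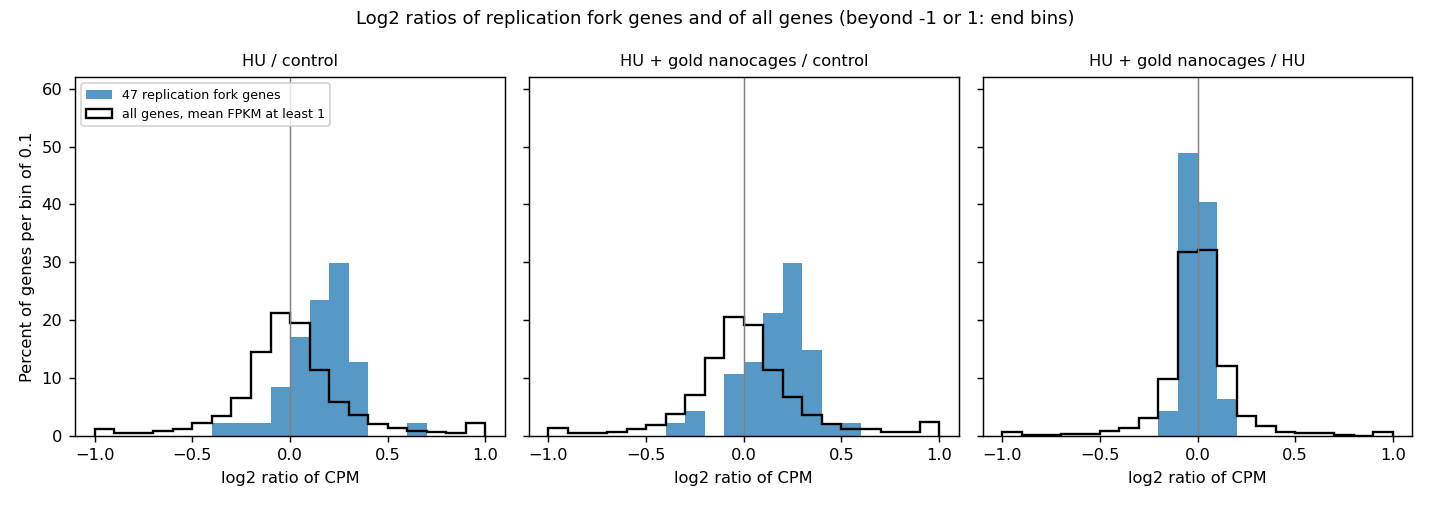
Log2 ratios of CPM (x axis) for the 47 fork genes (blue) and for all 10846 expressed genes (black outline), as a percent of genes per bin (y axis), in the 3 comparisons. In both comparisons with control most fork genes lie right of 0, with a median of 0.20, while all genes centre near 0; between HU + nanocages and HU both centre near 0.

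Because RNA came from whole cultures, more cells in a given phase of the cell cycle and more RNA per cell cannot be told apart in any of these values. Of 20 genes of mitosis, 20 were lower than control, 18 of them at a ratio of 0.8 or less, in HU + nanocages (median ratio 0.530) and in HU (median ratio 0.521); of all genes, 8.57% and 8.83% were at 0.8 or less in the same order. The part of this difference in the values of the fork genes was not tested. The libraries held 18644333 reads in HU + nanocages, 20057329 in HU and 14990564 in control. Macrophage markers were present, 9 of 10 at a mean of at least 1 FPKM, with a summed level of 2808 FPKM in HU + nanocages, 2935 in HU and 3063 in control; Mrc1 was at 0. Of the markers of fibroblasts (6), lymphocytes (7), granulocytes and mast cells (6) and dendritic cells (4), none reached that mean, each list summed to at most 0.34 FPKM in any library, and 3, 5, 5 and 1 of them had no reads.

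**Figure D2:**
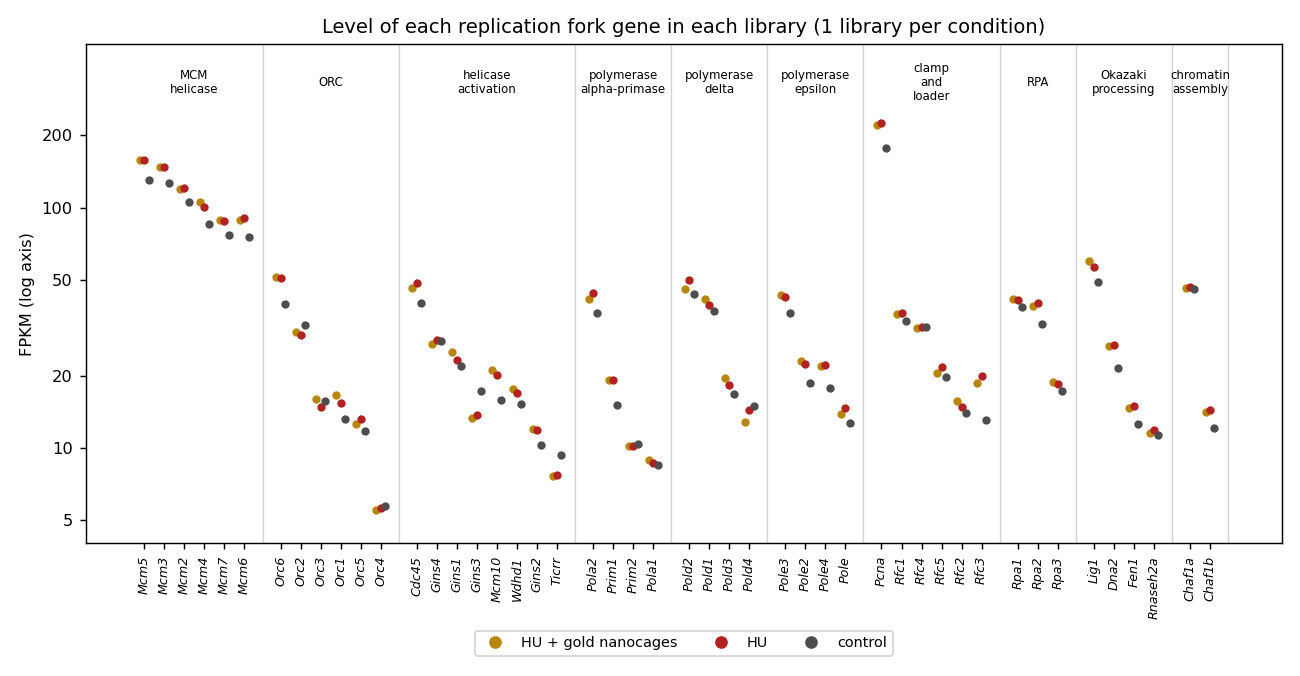
FPKM (y axis, log scale) of each fork gene, grouped by complex, with 1 point per library for HU + nanocages, HU and control. Pcna and the 6 MCM genes stand highest and Orc4 lowest; in most genes the HU + nanocages and HU points lie close together and above control.

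The fork genes covered a wide range of levels. FPKM ran from 5.52 in HU + nanocages, 5.6 in HU and 5.75 in control for Orc4 to 219.75, 225.42 and 176.92 in the same order for Pcna, and the median gene stood at 23, 22.41 and 19.63 FPKM. Across the 47 genes, the log2 ratio of HU to control had a Pearson correlation of 0.37 and a Spearman correlation of 0.40 with the log2 mean FPKM, and of -0.05 and -0.13 with the log2 exonic length. These correlations describe genes that share the same libraries and depth. The ratios thus tended only weakly to be higher in the more abundant genes, and length showed little relation to them. The genes with the highest ratios in HU, Rfc3, Orc6 and Pcna, had means of 17.2, 47.3 and 207 FPKM.

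ORC binds origins and starts the loading of the helicase, and its 6 genes were split. The summed reads of the complex gave a ratio to control of 1.07 (1.03 to 1.1) for HU + nanocages and 1.04 (1.01 to 1.08) for HU. In HU + nanocages, 2 genes had an interval above 1 (Orc6 and Orc1), 1 below it (Orc2), and 3 that included it. In HU, 3 lay above 1 (Orc6, Orc1 and Orc5), 1 below it (Orc2), and 2 included it (Orc3 and Orc4). The spread of levels was wide too, since Orc6 stood 9.30-fold above Orc4 in FPKM in HU + nanocages, 9.09-fold in HU and 6.89-fold in control.

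Orc6, the smallest and most loosely held ORC subunit, had 51.33 FPKM in HU + nanocages and 50.88 in HU, against 39.59 in control (1582 and 1687 reads against 981). Both HU libraries stood clearly above control and beside each other. The ratio was 1.297 (1.197 to 1.41) for HU + nanocages and 1.29 (1.19 to 1.39) for HU. In the GENCODE M21 annotation, exons of Vps35 lie opposite 6.93% of the exonic bases of Orc6. Vps35 had 3550 reads in HU + nanocages, 3869 in HU and 3069 in control, and its part in the Orc6 ratio was not tested. Orc1, the subunit that binds and hydrolyses ATP at the origin, had 16.56 FPKM in HU + nanocages and 15.42 in HU, against 13.15 in control, with ratios to control of 1.26 (1.14 to 1.39) and 1.17 (1.06 to 1.29); it passed 5/4 in HU + nanocages and not in HU, and the interval of the ratio between the HU libraries included 1. Orc5 had a ratio of 1.07 (0.991 to 1.16) in HU + nanocages and 1.13 (1.04 to 1.22) in HU.

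Orc2, a core subunit, went the other way, with 30.22 FPKM in HU + nanocages and 29.59 in HU, against 32.38 in control. Its ratio was 0.933 (0.877 to 0.993) for HU + nanocages and 0.914 (0.859 to 0.972) for HU, small but outside counting error in both. In the GENCODE M21 annotation 29.8% of the exonic bases of Orc2 lie opposite exons of Nif3l1, and the strand setting of the counting is not known, so the reads of these 2 genes cannot be fully told apart. Orc3 had 16.02 FPKM in HU + nanocages, 14.79 in HU and 15.6 in control, a ratio of 0.948 (0.884 to 1.02) of HU to control. Orc4 had 5.52, 5.6 and 5.75 FPKM in the same order, a ratio of 0.974 (0.878 to 1.08). Both of these intervals included 1. Orc3 was higher in HU + nanocages than in HU, at a ratio of 1.08 (1.01 to 1.16), while Orc4 was close in the 3 libraries.

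The MCM ring, the motor of the replicative helicase, was the complex whose genes lay closest together. All 6 genes were higher than control beyond counting error in both HU libraries. In HU + nanocages the ratios ran from 1.13 to 1.24, and the intervals overlapped for 13 of the 15 pairs of MCM genes. In HU they ran from 1.14 to 1.21, and the intervals of all 15 pairs overlapped. None reached 5/4. Summed over the ring the ratio was 1.18 (1.16 to 1.195) for HU + nanocages and 1.18 (1.16 to 1.19) for HU, and the ring took 0.268% of all reads in HU + nanocages, 0.267% in HU and 0.227% in control. These are deep genes, with 4595 to 7115 reads each in control, which is why differences of this size fall outside counting error.

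Mcm5 had 157.65 FPKM in HU + nanocages and 157.5 in HU, against 129.75 in control, and had the highest ratio of the ring in HU, 1.21 (1.18 to 1.252). Mcm7 had 88.78 FPKM in HU + nanocages and 87.95 in HU, against 77.05 in control, and had the lowest, 1.14 (1.102 to 1.18). In both genes the HU libraries were almost level and control was below them. Mcm2, Mcm3, Mcm4 and Mcm6 lay between, at 1.15, 1.17, 1.18 and 1.201. Mcm4 moved furthest with nanocages, to 105.73 FPKM in HU + nanocages, beside 100.37 in HU and 85.41 in control, a ratio of 1.24 (1.19 to 1.29) to control. E2F-like words were found in the promoters of Mcm3, Mcm5, Mcm6 and Mcm7 shown above and not in that of Mcm2, whose ratio of 1.15 (1.11 to 1.19) was like theirs.

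**Figure D3:**
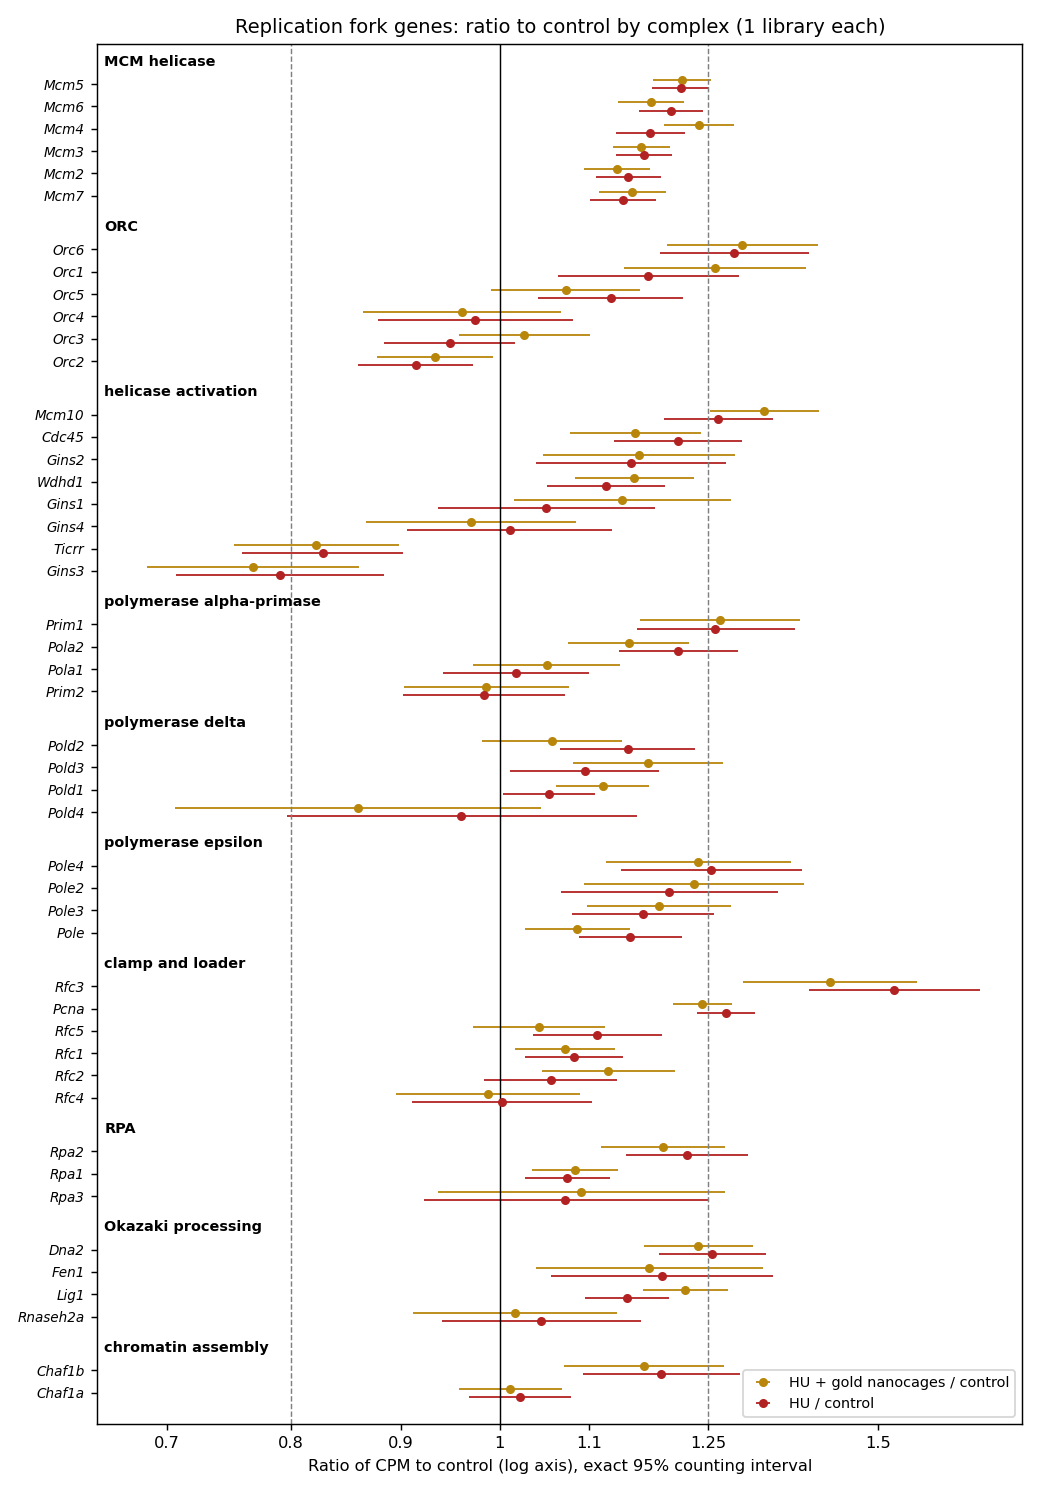
Ratio of CPM to control (x axis, log scale) with exact 95% counting intervals for each fork gene by complex, for HU + nanocages (gold) and HU (red); dashed lines mark 0.8 and 5/4. The MCM genes cluster between 1.13 and 1.24, Rfc3 stands furthest right and Gins3 furthest left.

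The factors that turn the loaded ring into a running helicase were a mixed group, and held the lowest of the 47 genes and a gene past 5/4. Of 8 genes, 4 had an interval above 1 in HU, 2 below and 2 that included 1, and their summed reads gave 1.11 (1.08 to 1.14) for HU + nanocages and 1.096 (1.07 to 1.13) for HU. Of the 28 pairs of genes, 14 had intervals that did not overlap in HU + nanocages and 15 in HU.

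Mcm10, which helps activate the helicase, had 21.08 FPKM in HU + nanocages and 20.06 in HU, against 15.88 in control (3023 and 3095 reads against 1831). Its ratio was 1.33 (1.252 to 1.41) for HU + nanocages and 1.26 (1.19 to 1.34) for HU, so both HU libraries were past 5/4. Cdc45, the partner of MCM and GINS in the helicase, had a ratio of 1.21 (1.13 to 1.297) in HU, with 48.37 FPKM there and 39.96 in control. Wdhd1, which ties the helicase to polymerase alpha, had 1.12 (1.05 to 1.19).

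Ticrr encodes Treslin, which brings Cdc45 to the loaded ring. It had 7.64 FPKM in HU + nanocages and 7.69 in HU, against 9.29 in control. The 2 HU libraries were level and below control, with ratios of 0.822 (0.752 to 0.897) and 0.827 (0.759 to 0.902), so Ticrr and Cdc45 went in opposite directions.

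The GINS genes, whose 4 products form 1 tight assembly, did not share a ratio. Gins3 had 13.25 FPKM in HU + nanocages and 13.64 in HU, against 17.26 in control (596 and 660 reads against 624, from a smaller control library). It was the lowest of all 47 fork genes and the only one past 0.8 in either comparison, with ratios of 0.768 (0.685 to 0.861) and 0.791 (0.707 to 0.883), and 8.2% of all genes had a lower ratio in HU. The gene lies at chr8:95633453-95645060 on the plus strand (mm10). Gins2 had a ratio of 1.15 (1.04 to 1.27) in HU, but 67.3% of its exonic bases lie opposite exons of Gse1, which had 1619 reads in HU + nanocages and 1740 in HU, against 705 in control; the reads of these 2 genes cannot be fully told apart, and the part of Gse1 in the Gins2 value was not tested. Gins1, at 1.05 (0.936 to 1.18), and Gins4, at 1.01 (0.905 to 1.13), had intervals that included 1. Summed over GINS, the ratio of HU to control was 0.998 (0.946 to 1.05), with the Gins2 and Gins3 values on opposite sides.

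Polymerase alpha-primase makes the RNA-DNA primer that starts each new strand. Its summed ratio was 1.11 (1.07 to 1.16) for HU + nanocages and 1.13 (1.08 to 1.17) for HU, and the genes of the primase pair stood apart. Prim1, the small catalytic primase subunit, had 19.16 FPKM in HU + nanocages and 19.08 in HU, against 15.14 in control, with ratios of 1.27 (1.16 to 1.38) and 1.26 (1.16 to 1.37). Prim2, the large primase subunit, had 10.19 FPKM in HU + nanocages and 10.16 in HU, against 10.34 in control, a ratio of 0.983 (0.901 to 1.07) in HU. The intervals of Prim1 and Prim2 did not overlap. Of the polymerase subunits, the accessory Pola2 was at 1.15 (1.08 to 1.23) and the catalytic Pola1 at 1.05 (0.972 to 1.14) in HU + nanocages, with intervals that overlapped. In HU they were at 1.21 (1.14 to 1.29) and 1.02 (0.941 to 1.1), with intervals apart.

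Polymerase delta copies the lagging strand. Its 4 genes had small ratios, with 3 intervals above 1 in HU, none at 5/4 and a summed ratio of 1.103 (1.06 to 1.14) for HU + nanocages and 1.08 (1.04 to 1.12) for HU. Pold2, an accessory subunit, had 46.05 FPKM in HU + nanocages and 49.96 in HU, against 43.56 in control, a ratio of 1.15 (1.07 to 1.23) of HU to control. The HU library stood above both others. Pold4, the small accessory subunit, had 12.85 FPKM in HU + nanocages and 14.35 in HU, against 14.95 in control, a ratio of 0.960 (0.796 to 1.16) of HU to control. It rests on 218, 262 and 204 reads in the same order, so its interval is the widest of the group. In GENCODE M21, 24.6% of the exonic bases of Pold4 are shared with exons of AC109138.7 on the same strand. That gene has no count here, and its part in the Pold4 values was not tested. The catalytic subunit gene Pold1 had 1.05 (1.00 to 1.11), and Pold3 had 1.095 (1.01 to 1.19).

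Polymerase epsilon copies the leading strand, and all 4 of its genes had an interval above 1 in HU + nanocages and in HU. The summed ratio was 1.15 (1.11 to 1.196) for HU + nanocages and 1.18 (1.13 to 1.22) for HU. Pole4, a small histone-fold subunit, had 21.87 FPKM in HU + nanocages and 22.18 in HU, against 17.68 in control, with a ratio of 1.254 (1.14 to 1.38) in HU. Pole, the catalytic subunit, had 13.79 FPKM in HU + nanocages and 14.59 in HU, against 12.69 in control, and the lowest ratio of the complex, 1.15 (1.09 to 1.21). All 6 pairs of intervals overlapped in each of the comparisons with control. Pole2 and Pole3 lay between, at 1.199 and 1.17.

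The clamp and its loader held the gene with the highest ratio and the most abundant gene. Rfc3, a small loader subunit, had 18.57 FPKM in HU + nanocages and 19.9 in HU, against 13.04 in control (1250 and 1441 reads against 706). Both HU libraries stood well above control, with ratios of 1.42 (1.297 to 1.56) and 1.53 (1.39 to 1.67), and in HU 95.6% of all genes had a lower ratio. Rfc3 lies at chr5:151642756-151651242 on the minus strand (mm10). The other loader genes did not follow it. Rfc4, a neighbouring small subunit, had 31.47 FPKM in HU + nanocages and 31.95 in HU, against 31.88 in control, a ratio of 1.00 (0.910 to 1.104). Rfc1, Rfc2 and Rfc5 had ratios of 1.08, 1.06 and 1.11 in HU, so the interval of Rfc3 lay above those of the other 4 loader genes. Exons of Eif4a2, Lat2 and Wsb2 lie opposite 12.7%, 15.1% and 10.7% of the exonic bases of Rfc4, Rfc2 and Rfc5. In control these neighbours had 3462, 1462 and 1990 reads, beside 733, 1319 and 1374. The reads of each pair cannot be fully told apart, and their part in these ratios was not tested.

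Pcna, the sliding clamp, had 219.75 FPKM in HU + nanocages and 225.42 in HU, against 176.92 in control. Its ratio was 1.24 (1.203 to 1.28) for HU + nanocages and 1.27 (1.24 to 1.31) for HU, so it passed 5/4 in HU and missed it in HU + nanocages, while both intervals spanned 5/4. Its reads set the summed ratio of the clamp and loader, 1.197 (1.17 to 1.22) in HU, above the median of its 6 genes, 1.097. How reads shared with near-identical copies were counted is not known; the pseudogene Pcna-ps2 had 41 reads in HU + nanocages, 57 in HU and 22 in control, beside 9833, 10851 and 6365 for Pcna itself.

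RPA, the single-strand binding protein that gathers on stalled forks, had a summed ratio of 1.12 (1.08 to 1.16) in HU + nanocages and in HU. Rpa2, the middle subunit, had 39.05 FPKM in HU + nanocages and 40.05 in HU, against 32.79 in control, a ratio of 1.22 (1.14 to 1.304) in HU. Rpa3, the small subunit, had 18.84 FPKM in HU + nanocages and 18.52 in HU, against 17.26 in control, a ratio of 1.07 (0.922 to 1.249), from 294 control reads. Rpa1, the large DNA-binding subunit, had 1.08 (1.03 to 1.12), with an interval that did not reach that of Rpa2 in HU; in HU + nanocages all 3 pairs of RPA intervals overlapped.

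The genes that finish the Okazaki fragments were all above 1, with a summed ratio of 1.202 (1.16 to 1.24) for HU + nanocages and 1.17 (1.14 to 1.21) for HU. Dna2, a nuclease and helicase that trims long flaps, had 26.51 FPKM in HU + nanocages and 26.9 in HU, against 21.43 in control, a ratio of 1.24 (1.17 to 1.31) and 1.26 (1.19 to 1.33). Rnaseh2a, the catalytic subunit of the RNase that removes RNA from DNA, had 11.48 FPKM in HU + nanocages and 11.81 in HU, against 11.29 in control, a ratio of 1.05 (0.940 to 1.16) in HU. Dna2 was thus clear of counting error and Rnaseh2a was not. Lig1, the ligase that seals the nicks, had 1.15 (1.096 to 1.199) in HU, and Fen1, the flap endonuclease, had 1.19 (1.06 to 1.34). Opposite 78.8% of the exonic bases of Fen1 lies the antisense gene Gm10143, with 41 reads in HU + nanocages, 47 in HU and 16 in control, beside 664, 724 and 455 for Fen1. Exons of Tmem258 lie opposite 5.37% of them, with 743 reads in HU + nanocages, 865 in HU and 619 in control. The part of both neighbours in the Fen1 ratio was not tested.

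CAF-1 places new histones behind the fork. Chaf1b, its middle subunit, had 14.11 FPKM in HU + nanocages and 14.39 in HU, against 12.1 in control, a ratio of 1.19 (1.09 to 1.29) in HU. Chaf1a, its large subunit, had 46.42 FPKM in HU + nanocages and 46.89 in HU, against 45.9 in control, a ratio of 1.02 (0.968 to 1.08). The 2 intervals did not overlap. In GENCODE M21, Ubxn6 exons lie opposite 4648 exonic bases of Chaf1a (52.5%), with 917 reads in HU + nanocages, 974 in HU and 713 in control. The deposited exonic size of Chaf1a is 3308 bases, fewer than this overlap, so another gene model was counted. The part of the counted bases that lies opposite Ubxn6 is therefore not known.

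Adding nanocages to HU left the fork genes near their HU values. No gene reached 5/4 or 0.8 (0 of 47), beside 3.74% of all genes higher and 3.3% lower, and 0.547% and 0.328% among the genes with at least 204 control reads. The ratio of HU + nanocages to HU was above 1 for 22 genes and below 1 for 25, with a median of 0.993, a range of 0.895 to 1.08 and a summed ratio of 1.00 (0.994 to 1.01). The interval lay above 1 for 4 genes (8.51%), beside 8.35% of all genes, and below 1 for 2 (4.26%), beside 7.78%. The share above 1 was near the background.

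The 4 genes above 1 were Orc3 at 1.08 (1.01 to 1.16), Lig1 at 1.06 (1.02 to 1.11), Pold1 at 1.06 (1.01 to 1.11) and Mcm4 at 1.05 (1.02 to 1.09). The 2 below 1 were Pold2 at 0.922 (0.862 to 0.985) and Pole at 0.945 (0.898 to 0.994). Pold1 and Pold2, subunits of the same polymerase, thus lay on opposite sides. The highest ratio of all belonged to Gins1, with 25.08 FPKM in HU + nanocages, 23.12 in HU and 22 in control, at 1.08 (0.976 to 1.21). The lowest were those of Pold4, at 0.895 (0.744 to 1.08), Pold2 and Rfc3, at 0.933 (0.864 to 1.01). Orc1 was at 1.07 (0.986 to 1.17). Intervals of Gins1, Orc1, Pold4 and Rfc3 included 1.

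**Figure D4:**
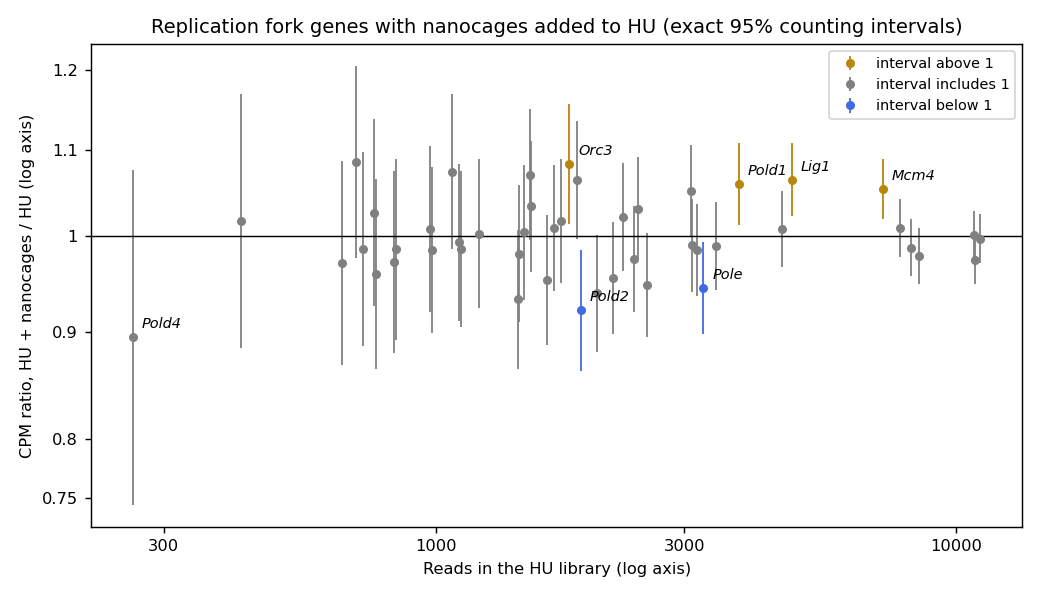
Ratio of CPM of HU + nanocages to HU (y axis, log scale) against reads in the HU library (x axis, log scale) for each fork gene, with exact 95% counting intervals. Intervals of 4 genes lie above 1 and of 2 below it; the widest interval is that of Pold4, which has the fewest reads.

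Beyond the fork itself, 40 further genes of replication, among them licensing, checkpoint-linked, cohesion-linked and chromatin factors, gave a looser picture. In HU, 5 were higher than control at 5/4 (Cdc6, Exo1, Uhrf1, Dscc1 and Ctc1) and 2 were lower at 0.8 (Dbf4 and Top2a), or 12.5% and 5%, beside 10.5% and 8.83% of all genes. The ratio was above 1 for 29 of 40 (72.5%), beside 48.1% of all genes, with a median of 1.07. The interval lay above 1 for 21 (52.5%) and below 1 for 3 (7.5%), beside 18.7% and 20.1% of all genes. In HU + nanocages the counts at these folds were again 5 and 2 (12.5% and 5%), beside 10.9% and 8.57% of all genes, with a median of 1.08. The shares that were higher were near the background in both comparisons.

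Cdc6, which loads MCM together with ORC, had 24.18 FPKM in HU + nanocages and 24.14 in HU, against 15.55 in control, a ratio of 1.55 (1.45 to 1.66) in HU. Exo1, an exonuclease, had 8.96 FPKM in HU + nanocages and 8.95 in HU, against 6.24 in control, a ratio of 1.43 (1.31 to 1.57). Uhrf1, which guides DNA methylation to new DNA, had 134.51 FPKM in HU + nanocages and 134.99 in HU, against 97.83 in control, a ratio of 1.38 (1.34 to 1.42). In these 3 genes the HU libraries were level and stood above control.

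At the other end, Dbf4, the activating subunit of the Cdc7 kinase that fires origins, had 8.6 FPKM in HU + nanocages and 7.81 in HU, against 13.88 in control, a ratio of 0.563 (0.524 to 0.604) in HU. Top2a, the topoisomerase that untangles chromosomes before mitosis, had 52.5 FPKM in HU + nanocages and 49.76 in HU, against 72.32 in control, a ratio of 0.688 (0.669 to 0.708). Both stood below control in both HU libraries, lower than any of the 47 fork genes. Ten1, a subunit of the CST complex, followed at 0.908 (0.783 to 1.05), with 7.39, 7.35 and 8.09 FPKM in HU + nanocages, HU and control.

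Other lists are given beside the 10.5% of all genes that were higher and the 8.83% that were lower in HU than in control. Of 10 genes of nucleotide supply, 4 were higher in HU than in control at 5/4 and 0 lower, with a median of 1.08. Of 12 regulators of the step from G1 to S, 7 were higher and 1 lower, with a median of 1.36. That list mixes genes that promote and restrain the step, and its highest ratio, 6.54, was that of the inhibitor gene Cdkn1a. Of 8 genes of mitochondrial DNA replication 0 were higher and 0 lower, with a median of 0.988. Compared with these medians, the fork genes, at 1.15, lay between the mitochondrial and the G1 to S lists, and far from the mitosis list at 0.521. Between HU + nanocages and HU, 0 genes of any of these lists passed 5/4 or 0.8. The lists share the libraries with the fork genes and were not tested against them.

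**Figure D5:**
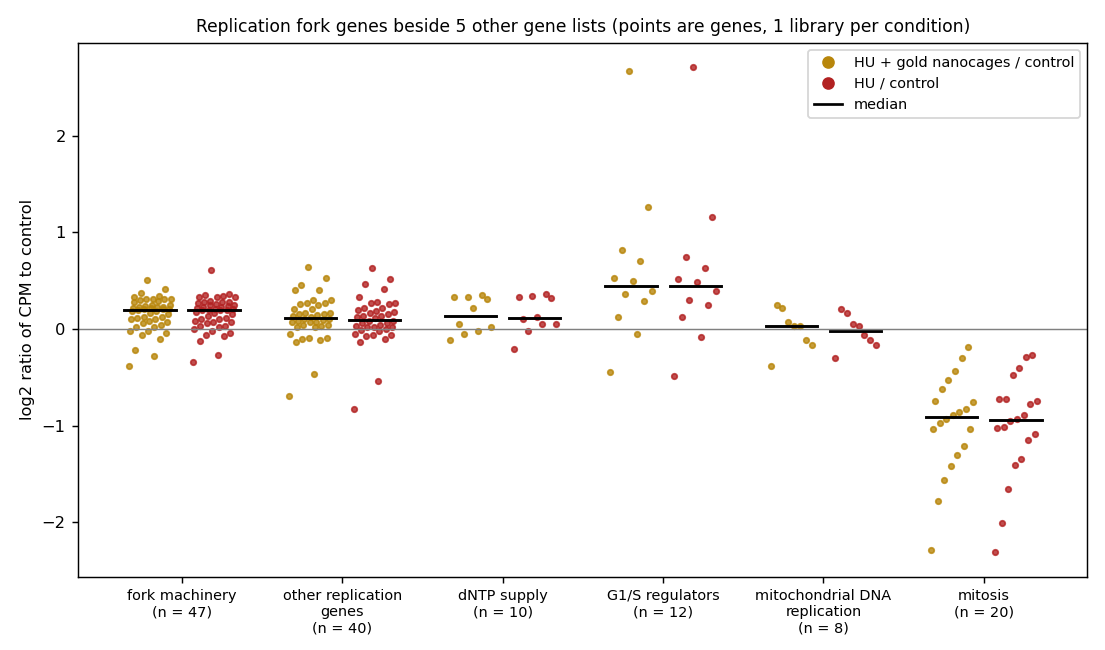
Log2 ratio of CPM to control (y axis) for the fork genes and 5 other gene lists (x axis), with 1 point per gene for HU + nanocages (gold) and HU (red) and a bar at each median. Most fork genes lie just above 0 and some below it, the mitosis genes lie below 0 throughout, and the G1 to S list spreads widest above 0.

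Promoter letters did not clearly separate the fork genes by their ratio to control. The 14 genes with an E2F-like word had a median ratio of 1.16 in HU, from 0.791 (Gins3) to 1.53 (Rfc3), and the 26 without had a median of 1.14, from 0.827 (Ticrr) to 1.29 (Orc6). In HU + nanocages against control the medians were 1.17 and 1.11. Between HU + nanocages and HU they were 1.02, with 9 of the 14 genes above 1, and 0.986, with 8 of the 26 above 1. These small differences were not tested. Pcna, Orc6, Mcm10, Prim1 and Dna2, all higher in HU at 5/4, held none of these words in the window, which says only that these letters are not there. The 7 genes without an entry had a median of 1.06 in HU.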

How the data were processed

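Poly(A) selection or its absence is not given in the sources used here; per the labels' protocols, libraries started from 1 µg of total RNA whose integrity number exceeded 7. Read counts, as the authors deposited them, are whole numbers and not normalized. The deposited FPKM equals the count divided by exonic size and by the summed count, within 0.006 FPKM, for 100% of genes. The exonic size, per the file headers, is another kind of value, a length in bases. Per the submitters' processing notes, the build was mm10 and the tools HTSeq 0.6.1, HISAT2 2.0.1, DESeq, SAMtools 0.1.18, cutadapt and bcl2fastq 2.17.1.14, with roles, annotation release and strand setting not given in the sources used here.

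Each symbol was represented by its gene ID with the most reads (a second ID of Pold4 had 0 reads). CPM is the count scaled to the library's summed count (14990564 to 20057329 reads). The ratio of CPM has an exact Clopper-Pearson 95% interval, which covers counting error only, since there were neither molecular identifiers nor repeated cultures. The design allows no p-value. Genes with a mean of at least 1 FPKM were the background; calls were ratios of at least 5/4 or at most 0.8, or an interval that excluded 1. The symbols Pclaf, Stn1 and Twnk of the other lists were matched by gene ID through GENCODE M21 names. The genes with values in every library were the highest and lowest ratio of HU to control in each complex, the 6 highest and 6 lowest over all complexes, the 3 highest and 3 lowest of HU + nanocages to HU, and the 3 highest and 3 lowest of the other replication genes; further members were added with their ratios. The fork genes and the lists were chosen with earlier results of these data known. Overlaps and gene coordinates came from GENCODE M21. Alternatives were TMM scaling (edgeR 4.0.16, R 4.3.3), median-of-ratios size factors, pseudocounts of 1 and 5 FPKM, other filters and other folds. Python 3.11.15, pandas 2.3.3, numpy 2.4.6 and scipy 1.17.1 were used.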

Additional observations from a re-analysis of the deposited data

How the results depend on the processing

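The median log2 ratio of the 47 fork genes kept its direction under every scaling, pseudocount and filter tried, from 0.15 to 0.20 for HU against control. The filters and pseudocounts could not have changed this direction. All 47 genes passed both other filters, and a pseudocount cannot move a ratio across 1. TMM scaling, size factors and both other filters left the counts of fork genes at 5/4 and 0.8 as they were, but the share of all genes beside them depended on the filter. For HU against control it was 10.5% higher and 8.83% lower, 6.71% and 5.67% at a mean of at least 5 FPKM, and 18.6% and 17.9% without the filter. The counts depended on the fold and the pseudocount. For HU against control, 7 genes were higher and 1 lower. With pseudocounts of 1 and 5 FPKM these became 3 and 3 higher and 0 and 0 lower, while the share of all genes became 7.59% and 3.78% higher and 6.19% and 2.79% lower. A fold of 1.1 gave 28 higher and 2 lower (23.6% and 24.4% of all genes), a fold of 1.5 gave 1 and 0 (4.52% and 3.12%), and the counting interval gave 32 and 3. For HU + nanocages against control, 5 were higher and 1 lower. A pseudocount of 1 FPKM gave 3 higher (8.37% of all genes), and a pseudocount of 5 FPKM gave 2 higher and 0 lower (3.96% and 2.95%). A fold of 1.1 gave 28 and 3 (24.9% and 24.3%), a fold of 1.5 gave 0 and 0 (5.28% and 3.25%), and the counting interval gave 31 and 3. For HU + nanocages against HU, 0 were higher and 0 lower, a fold of 1.1 gave 0 higher and 1 lower (13.2% and 10.99% of all genes), and the counting interval gave 4 above and 2 below. A pseudocount shrinks the ratio of low genes by construction. Of 564 single gene values under the scaling and pseudocount alternatives, 0 reversed and 2 moved beyond their interval, both with a pseudocount of 5 FPKM. A value could count as reversed only where the interval of the main ratio excluded 1. Genes with an interval that included 1 could change side of 1 under another scaling without being counted. Only the values under TMM scaling and size factors could have reversed, since a pseudocount keeps the side of 1. The comparison with genes of at least 204 control reads was chosen after seeing the data. No paired analysis was possible because each condition is 1 library.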
